A study of Mus musculus with 8 samples.

Results

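The amino acid transporter families are the plasma membrane and lysosomal carriers that bring amino acids, and some related small molecules, into cells and out of their lysosomes. Members were chosen by symbol: every measured gene whose symbol begins with Slc1a, Slc3a, Slc6a, Slc7a, Slc36a, Slc38a or Slc43a followed by a digit. This gave 64 of the 19938 genes measured, with 7 members in Slc1, 2 in Slc3, 21 in Slc6, 16 in Slc7, 4 in Slc36, 11 in Slc38 and 3 in Slc43. The symbol rule also took in Slc7a6os and Slc6a19os, opposite-strand genes named after a neighbouring carrier, which leaves 62 carrier genes.

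The cells were macrophages grown from mouse bone marrow for 10 days with 10 ng/ml macrophage colony-stimulating factor (M-CSF), serum-starved overnight and treated with 50 ng/ml recombinant murine interleukin-6 (IL-6) for 4 hours. IL6raKO macrophages (4 arrays) came from mice with IL6ralpha flox/flox alleles and LysMCre tg/wt, and Ctrl macrophages (4 arrays) from mice with IL6ralpha flox/flox alleles alone. Both groups therefore carry the floxed alleles of the IL-6 receptor alpha chain and both received IL-6; LysM-Cre, which is active in myeloid cells, is carried by IL6raKO mice alone, so the recombinase and the deletion cannot be told apart. No array without IL-6 was analysed, and neither strain nor age is stated in the labels. The labels call the arrays biological replicates without saying that each came from its own animal, so each p-value reflects the scatter of these 8 arrays, which may be technical.

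Most amino acids are polar and cross membranes only through carriers, which either exchange one amino acid for another or draw on sodium or proton gradients. Several Slc7 proteins work as light chains bound to a heavy chain of the Slc3 family, which carries the pair to the cell surface. In macrophages, arginine entering through cationic carriers feeds nitric oxide synthase and arginase, cystine entering through xCT (Slc7a11) feeds glutathione, and lysosomal carriers take part in signalling amino acid supply to the kinase complex mTORC1.

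Values are log2 expression from Affymetrix whole-transcript arrays, with array medians from 6.31 to 6.35, and differences are IL6raKO minus Ctrl on the log2 scale. Signal depends on the probe as well as on the transcript. Levels are placed as percentiles of signal among all genes, which keep that dependence. They are therefore not read as amounts of one transcript against another. In bulk RNA, fewer cells of a type and less RNA per cell cannot be told apart. Il6ra, the targeted gene, was at 7.75, 8.10, 7.91 and 7.92 in IL6raKO and at 8.43, 8.40, 8.40 and 8.45 in Ctrl; the groups did not overlap, and IL6raKO averaged 70.6% of Ctrl on the linear scale (difference -0.50, SE 0.07, limma adjusted p = 0.0607), just short of the 0.05 threshold. Stat3, the main transcription factor downstream of the receptor, fell by 0.57 in IL6raKO (limma adjusted p = 0.0348); with any 1 array left out its adjusted p was 0.0771 to 0.166. The macrophage genes Adgre1, Csf1r and Cd68 lay at percentiles 99.7, 99.7 and 99.9. On the first principal component, with 23.6% of the variance, Ctrl replicate 4 scored 21.55 and the other 7 arrays -6.60 to 4.82. It was also the array farthest from the median of the 8 for 16 of the 64 members, against 4 to 10 members for any other array.

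Of the 64 members, 16 had a mean signal above the 75th percentile of all genes, 12 lay between the median and that percentile, and 36 lay below the median. The highest percentiles were those of Slc6a6, the taurine carrier, and Slc3a2, the heavy chain also called CD98. Slc6a6 was at 12.28, 12.24, 12.21 and 12.23 in IL6raKO and at 12.19, 12.25, 12.19 and 12.19 in Ctrl, at percentile 99.7. Slc3a2 was at 11.28, 11.23, 11.32 and 11.30 in IL6raKO and at 11.16, 11.22, 11.29 and 11.25 in Ctrl, at percentile 98.5. For both genes the values of the 2 groups overlapped. The differences, 0.04 (95% confidence interval -0.09 to 0.16) for Slc6a6 and 0.05 (-0.08 to 0.18) for Slc3a2, had limma adjusted p = 0.912 and 0.865.

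**Figure D1:**
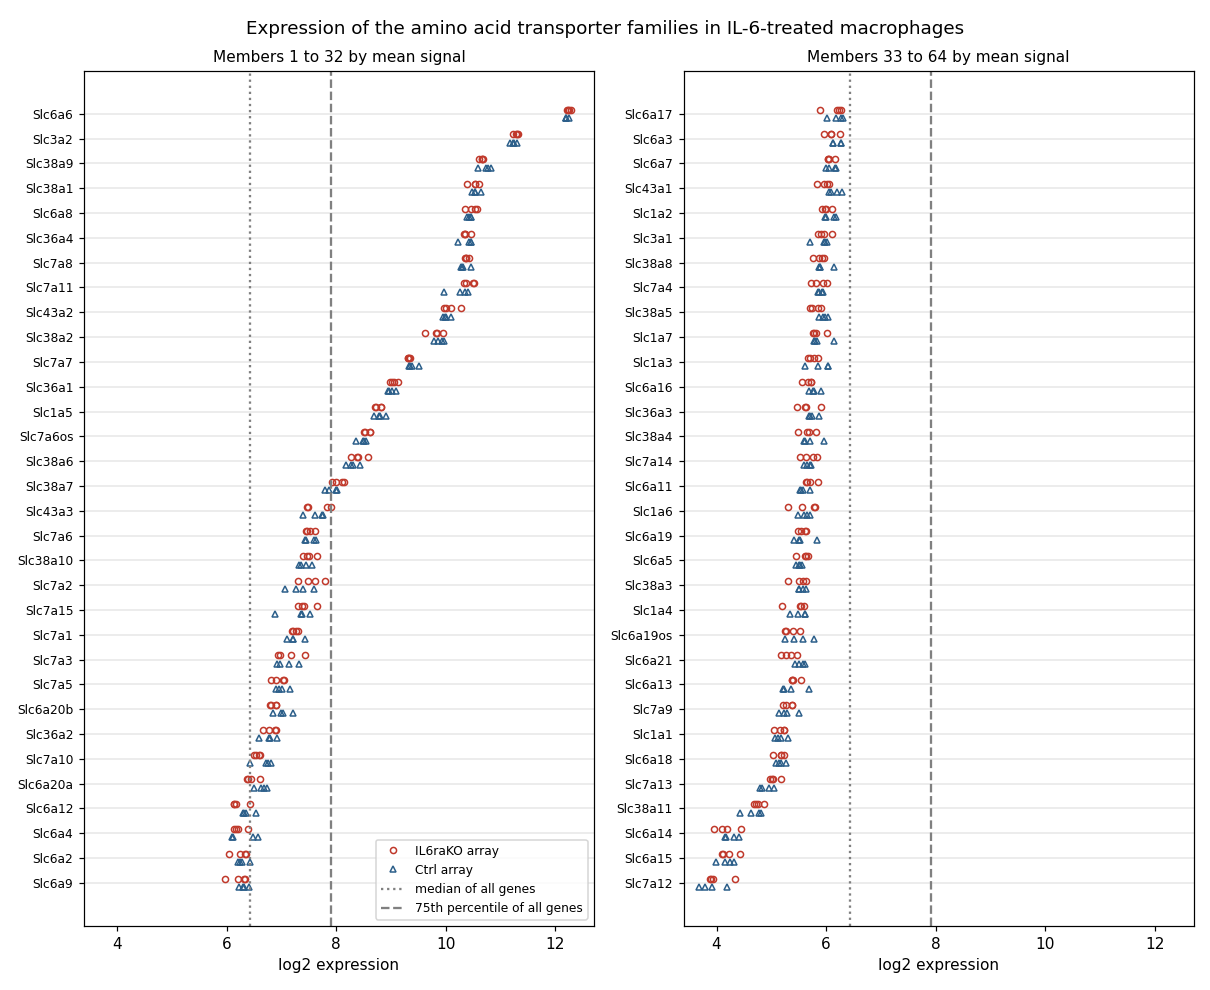
Log2 expression (x axis) of each of the 64 members in each array, in order of mean signal from top to bottom, left panel first; red circles are the 4 IL6raKO arrays, blue triangles the 4 Ctrl arrays, and the lines mark the median and the 75th percentile of all genes. Slc6a6 and Slc3a2 head the order, 16 members lie right of the dashed line, and IL6raKO and Ctrl values overlap for every member.

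Among the 10 light chains, 3 lay above the 75th percentile: Slc7a8 (LAT2, a neutral amino acid exchanger), Slc7a11 (xCT, which exchanges cystine for glutamate) and Slc7a7 (which exchanges cationic for neutral amino acids). Slc7a8 was at 10.37, 10.36, 10.35 and 10.43 in IL6raKO and at 10.28, 10.45, 10.29 and 10.31 in Ctrl. Slc7a7 was at 9.30, 9.35, 9.33 and 9.32 in IL6raKO and at 9.33, 9.35, 9.51 and 9.38 in Ctrl. Slc7a5 (LAT1, the carrier of large neutral amino acids) lay lower among all genes, at percentile 60.9, with 7.05, 6.91, 7.04 and 6.82 in IL6raKO and 6.96, 7.01, 6.90 and 7.16 in Ctrl. Groups overlapped in each of these 3 genes, with differences of 0.04, -0.07 and -0.06 in the order given. The light chains of kidney, Slc7a9, Slc7a12 and Slc7a13, lay below the median, as did Slc3a1, the heavy chain that pairs with Slc7a9 in kidney (percentile 38.2). Among the 10 light chains, 4 were lower and 6 higher in IL6raKO, with a median difference of 0.03; none passed an adjusted or an unadjusted p under 0.05.

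Slc7a11 had the largest difference among members above the 75th percentile. It was at 10.33, 10.36, 10.51 and 10.51 in IL6raKO and at 10.35, 10.27, 10.41 and 9.98 in Ctrl, averaging 10.43 ± 0.10 and 10.25 ± 0.19 (SD, n = 4 each). Ctrl replicate 4 was the lowest of the 8 values, and the other 3 Ctrl values lay within the IL6raKO range or just under it. The difference was 0.17 (SE 0.10, 95% confidence interval -0.03 to 0.38, limma adjusted p = 0.717), and 0.08 without Ctrl replicate 4 (adjusted p = 0.91). Without Ctrl replicate 3 it was 0.23 (limma adjusted p = 0.707), and these were the ends of its range with an array left out.

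The cationic carriers Slc7a1, Slc7a2 and Slc7a3, which bring in arginine, lysine and ornithine, lay between the median and the 75th percentile, and the related Slc7a4 and Slc7a14 below the median. Slc7a2, also called CAT2, showed the largest positive difference of any member. It was at 7.31, 7.62, 7.80 and 7.49 in IL6raKO and at 7.08, 7.40, 7.59 and 7.27 in Ctrl, averaging 7.56 ± 0.21 and 7.33 ± 0.22 (SD, n = 4 each). The 2 groups overlapped over most of their range, and the difference was 0.22 (SE 0.12, 95% confidence interval -0.04 to 0.49, limma adjusted p = 0.716). Slc7a1 (CAT1) was at 7.27, 7.30, 7.22 and 7.19 in IL6raKO and at 7.11, 7.21, 7.22 and 7.42 in Ctrl, with a difference of 0.01 (-0.15 to 0.17). Of the 5 cationic carriers, 1 was lower and 4 were higher in IL6raKO, with a median of 0.02.

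The Slc38 family holds sodium-coupled carriers of glutamine and other neutral amino acids, and lysosomal members. Of its 11 members, 5 lay above the 75th percentile (Slc38a9, Slc38a1, Slc38a2, Slc38a6 and Slc38a7), 7 were lower and 4 higher in IL6raKO, and the median was -0.05. Slc38a9, a lysosomal arginine sensor for mTORC1, was at 10.65, 10.60, 10.67 and 10.69 in IL6raKO and at 10.77, 10.83, 10.74 and 10.58 in Ctrl. All IL6raKO values lay under 3 of the Ctrl values and above the fourth, Ctrl replicate 4 (difference -0.08, -0.23 to 0.07, limma adjusted p = 0.82). Without that array the difference was -0.13 (limma adjusted p = 0.786). A second, dimmer probe set of Slc38a9 went the other way, at 0.08 (-0.05 to 0.22), so the direction depends on the probe set. Slc38a2, a glutamine and alanine carrier induced by amino acid shortage, was at 9.61, 9.82, 9.84 and 9.95 in IL6raKO and at 9.78, 9.92, 9.96 and 9.87 in Ctrl. Slc38a1, another glutamine carrier, was at 10.39, 10.53, 10.54 and 10.60 in IL6raKO and at 10.47, 10.54, 10.63 and 10.54 in Ctrl (difference -0.03). Both carriers had overlapping groups, with IL6raKO replicate 1 the lowest array of the 8. A second, dimmer probe set of Slc38a1 also had the opposite sign, at 0.05 (-0.19 to 0.28). Slc38a7, a lysosomal glutamine exporter, was at 8.11, 8.14, 8.00 and 7.93 in IL6raKO and at 7.79, 7.87, 8.02 and 8.00 in Ctrl, which overlapped (difference 0.12, SE 0.07, limma adjusted p = 0.746).

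The Slc36 family couples amino acids to protons, and 2 of its 4 members lay above the 75th percentile, Slc36a4 and the lysosomal carrier Slc36a1. Slc36a1 was at 9.13, 9.05, 9.03 and 8.98 in IL6raKO and at 8.96, 8.94, 9.10 and 9.02 in Ctrl. The family was split evenly, 2 lower and 2 higher, with a median of 0.01. Slc36a4 was at 10.33, 10.35, 10.34 and 10.45 in IL6raKO and at 10.42, 10.45, 10.47 and 10.22 in Ctrl, where 3 Ctrl arrays lay near the top of the range and replicate 4 at its foot (difference -0.02). In the Slc43 family, Slc43a2 (LAT4, a carrier of branched-chain amino acids and phenylalanine) was at 10.28, 10.09, 9.96 and 10.01 in IL6raKO and at 10.00, 9.99, 10.10 and 9.95 in Ctrl, a difference of 0.08 (-0.09 to 0.25). Slc43a3 was at 7.49, 7.83, 7.90 and 7.48 in IL6raKO and at 7.39, 7.76, 7.75 and 7.62 in Ctrl, a difference of 0.04 with overlap. Of the 7 Slc1 members, 1 lay above the 75th percentile: Slc1a5 (ASCT2, which exchanges glutamine and other neutral amino acids), at 8.82, 8.71, 8.83 and 8.72 in IL6raKO and at 8.69, 8.78, 8.92 and 8.80 in Ctrl. The other 6 Slc1 members, among them the glutamate carriers of brain, lay below the median of all genes. Slc1 differences were lower in 6 members and higher in 1, with a median of -0.04; no Slc1 or Slc36 member had an unadjusted p under 0.05.

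In the Slc6 family of sodium- and chloride-coupled carriers, the members above the 75th percentile were Slc6a6 and Slc6a8, the creatine carrier. Slc6a8 was at 10.57, 10.36, 10.46 and 10.53 in IL6raKO and at 10.38, 10.43, 10.45 and 10.46 in Ctrl, a difference of 0.05 (-0.09 to 0.19). The 10 Slc6 carriers of amino acids lay lower, 8 below the median and 2 (Slc6a20a and Slc6a20b) between the median and the 75th percentile. Of these 10, 8 were lower and 2 higher in IL6raKO, with a median of -0.04. The monoamine carriers Slc6a2, Slc6a3 and Slc6a4, whose substrates are noradrenaline, dopamine and serotonin, and the orphan Slc6a16 were all below the median; all 4 were lower in IL6raKO, with a median of -0.10, and none had an unadjusted p under 0.05. Genes below the median level leaned lower as a whole.

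No member was called at an adjusted p under 0.05 in the fit over all 19938 genes (limma, Benjamini-Hochberg), where 0.0301% of genes (6 genes) were called; the lowest adjusted p of a member was 0.625. At an unadjusted p under 0.05 there were 4 of 64 members (6.25%), beside 7.28% of all genes. All 4 were lower in IL6raKO, beside 4.54% of all genes that were lower and 2.74% that were higher at that threshold. No member had IL6raKO and Ctrl values without overlap, beside 4.44% of all genes. These shares of members lie near or under those of all genes. In sign, 36 members were lower and 28 higher in IL6raKO, with a median of -0.02 beside -0.01 over all genes, and single members ranged from -0.22 to 0.22. The 95% confidence intervals of the 64 members together spanned -0.39 to 0.49, so differences beyond those bounds lay outside every member's interval. Within-group SDs had a median of 0.110 over members and 0.113 over all genes.

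**Figure D2:**
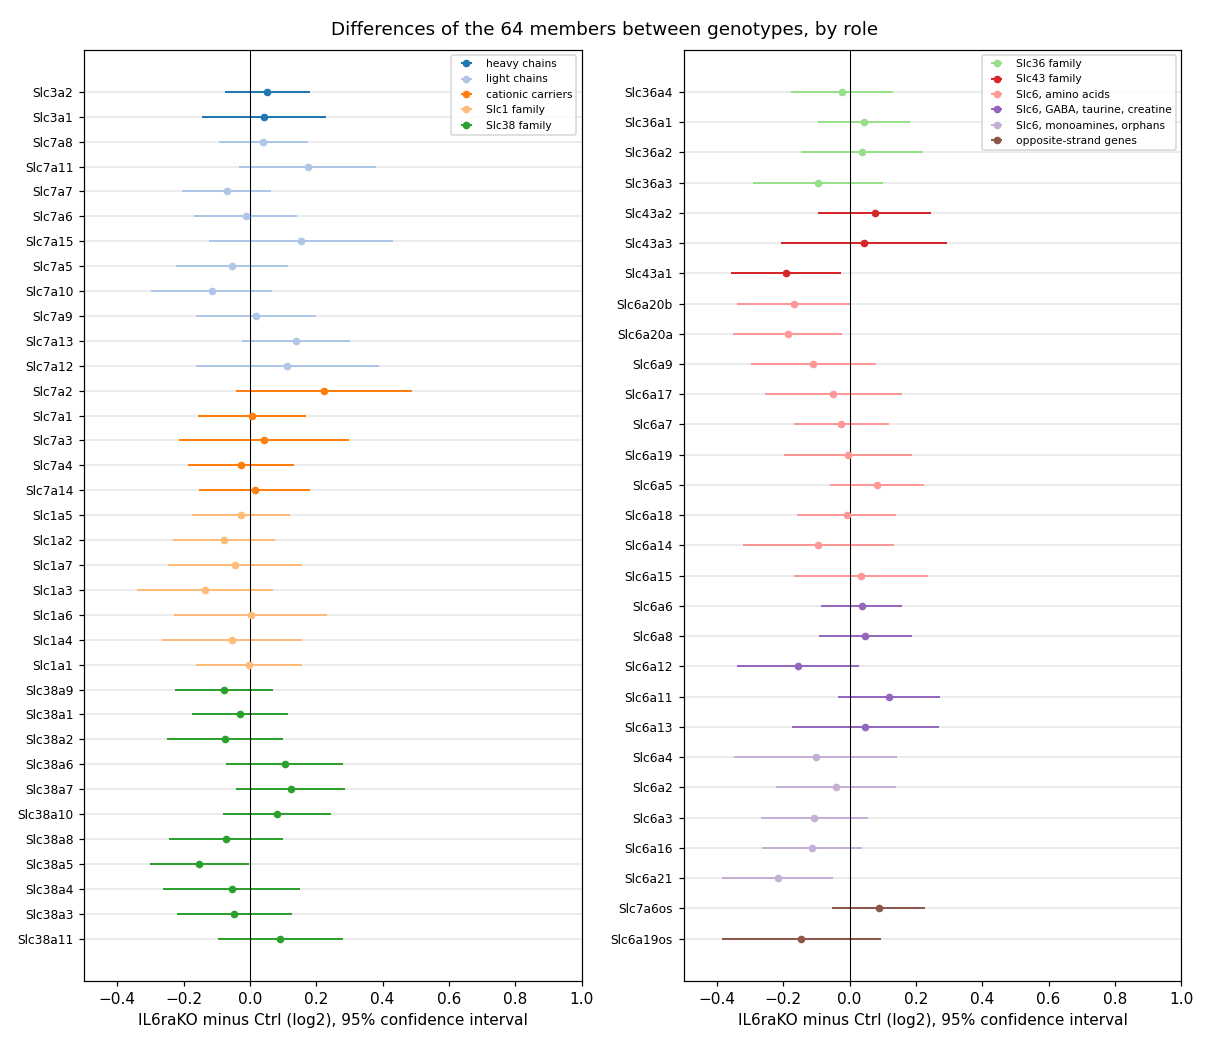
Difference IL6raKO minus Ctrl (log2, x axis) of each of the 64 members with its 95% confidence interval from the fit over all genes, grouped and coloured by role; Slc6a21, which was given no role, has the colour of the last Slc6 group. Points lie between -0.22 and 0.22, and the intervals that leave out 0 are those of Slc43a1, Slc6a20a, Slc6a21 and Slc38a5.

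The direction of small differences varied with signal level in the whole array. Among the 9969 genes below the median level, 6522 were lower and 3447 higher in IL6raKO, with a median of -0.04; among the 4985 genes above the 75th percentile, 1799 were lower and 3186 higher, with a median of 0.02. Members were divided in a like way. Of the 36 members below the median, 25 were lower and 11 higher, with a median of -0.05. Between the median and the 75th percentile, 5 of 12 members were lower and 7 higher, with a median of 0.02. Above the 75th percentile, 6 of 16 were lower and 10 higher, with a median of 0.04 and a range of -0.08 to 0.17. The confidence intervals of those 16 members spanned -0.25 to 0.38.

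**Figure D3:**
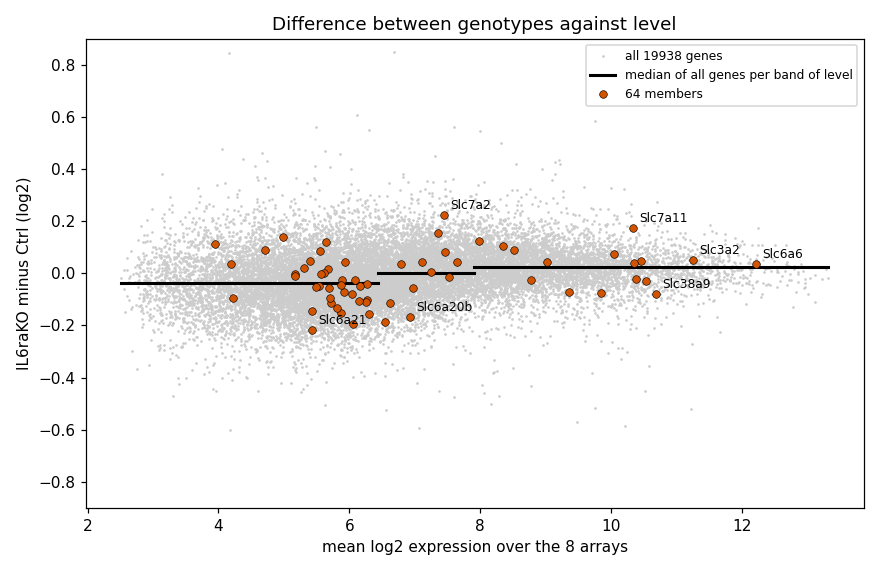
Difference IL6raKO minus Ctrl (log2, y axis) against mean log2 expression over the 8 arrays (x axis) for all 19938 genes (grey) and the 64 members (orange); black lines are the median difference of all genes below the median level, between it and the 75th percentile, and above. The medians of all genes run from -0.04 to 0.02 from dim to bright genes, and members scatter around them.

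The 4 members at an unadjusted p under 0.05 were Slc6a21, Slc43a1, Slc6a20a and Slc38a5. Slc6a21, for which no role is given here, was at 5.26, 5.47, 5.17 and 5.36 in IL6raKO and at 5.58, 5.61, 5.43 and 5.51 in Ctrl, averaging 5.32 ± 0.13 and 5.53 ± 0.08 (SD, n = 4 each). Its difference of -0.22 (SE 0.08, 95% confidence interval -0.38 to -0.05, limma adjusted p = 0.625) put IL6raKO at 86.1% of Ctrl, at percentile 26.1 of signal. A single IL6raKO array, replicate 2, reached into the Ctrl range. Slc43a1 (LAT3, a carrier of branched-chain amino acids and phenylalanine) was at 5.96, 5.82, 6.06 and 6.01 in IL6raKO and at 6.20, 6.05, 6.08 and 6.29 in Ctrl. The groups met at their edges, with a difference of -0.19 (SE 0.07, limma adjusted p = 0.669) and -0.15 without Ctrl replicate 4 (adjusted p = 0.795).

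Slc6a20a and Slc6a20b, carriers of proline and other imino acids, are near copies that lie next to each other on chromosome 9 (RefSeq, GRCm38.p6), so their probes may share signal and their values are uncertain as separate measurements. Slc6a20a was at 6.38, 6.60, 6.44 and 6.38 in IL6raKO and at 6.63, 6.50, 6.69 and 6.73 in Ctrl (difference -0.19, SE 0.07, limma adjusted p = 0.669). Slc6a20b was at 6.90, 6.81, 6.79 and 6.89 in IL6raKO and at 6.996, 7.21, 7.02 and 6.85 in Ctrl (difference -0.17, SE 0.08, limma adjusted p = 0.682). In each pair of groups 1 array crossed over: IL6raKO replicate 2 for Slc6a20a and Ctrl replicate 4 for Slc6a20b. Slc38a5, a glutamine carrier (system N), was at 5.75, 5.91, 5.85 and 5.71 in IL6raKO and at 5.87, 5.94, 5.98 and 6.03 in Ctrl, with overlap (difference -0.15, SE 0.07, limma adjusted p = 0.68). Slc6a12, the betaine carrier, followed with -0.15 (limma adjusted p = 0.715).

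On the higher side the lowest unadjusted p-values were those of Slc7a13, Slc7a2, Slc7a11, Slc6a11, Slc38a7 and Slc7a6os, and none was under 0.05. Slc7a13, a kidney light chain, was at 5.18, 4.98, 5.03 and 5.01 in IL6raKO and at 5.05, 4.80, 4.83 and 4.95 in Ctrl (difference 0.14, limma adjusted p = 0.715), at percentile 17.6 of signal. Slc6a11, a GABA carrier of brain, differed by 0.12 (limma adjusted p = 0.728), and the opposite-strand gene Slc7a6os by 0.09 (limma adjusted p = 0.787). All 6 had overlapping groups.

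**Figure D4:**
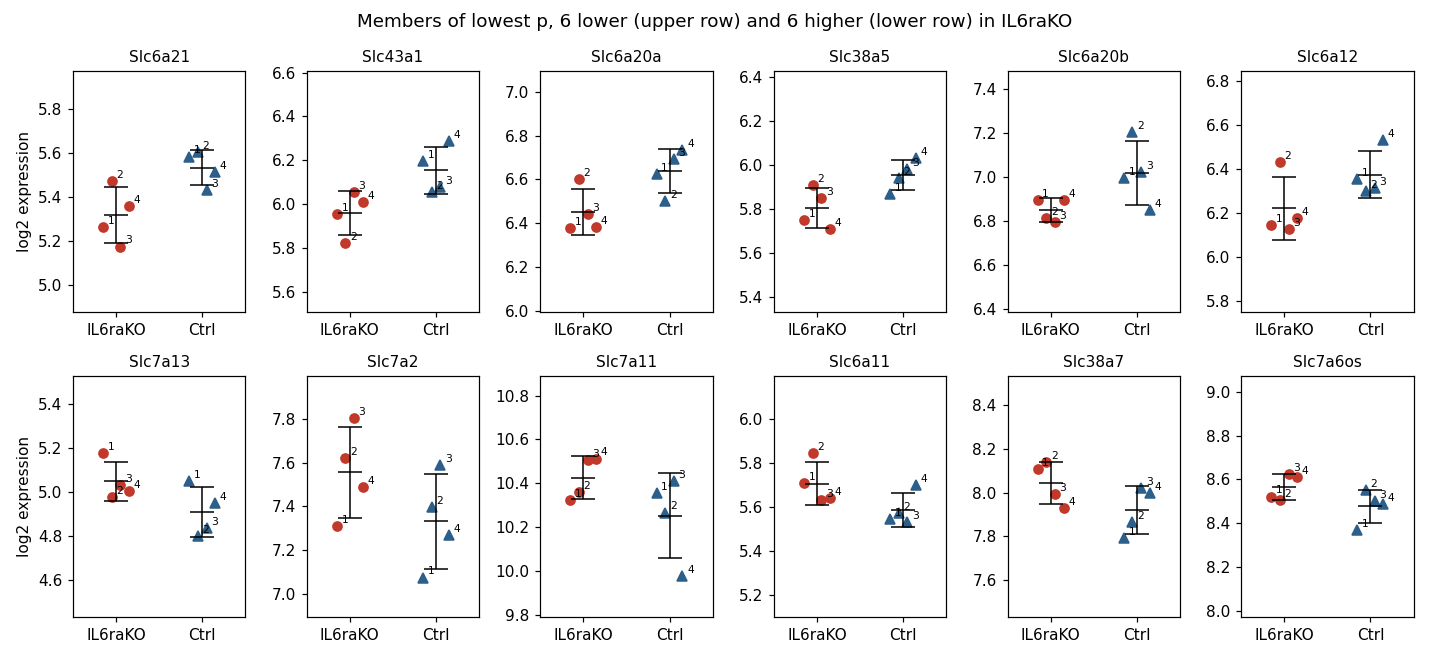
Log2 expression (y axis) in each IL6raKO array (red circles, left) and Ctrl array (blue triangles, right), numbered by replicate, for the 6 lower (top row) and 6 higher (bottom row) members of lowest p; bars are the mean ± SD (n = 4 each), and panels have their own axes. Every panel shows overlap, and Ctrl replicate 4 is the lowest Ctrl value for Slc7a11 and Slc6a20b and the highest for Slc43a1, Slc6a20a, Slc38a5, Slc6a12 and Slc6a11.

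A heteromeric transporter needs both chains, so Slc3a2 was set against 5 of the light chains it pairs with, over the 8 arrays (exact permutation over 40320 pairings, two-sided, 5 pairs). Pearson's r was -0.08 for Slc7a5 (p = 0.852), 0.203 for Slc7a6 (p = 0.635), 0.143 for Slc7a7 (p = 0.741), 0.179 for Slc7a8 (p = 0.672) and 0.392 for Slc7a11 (p = 0.336). No pair passed, with adjusted p = 0.852 for each r. Spearman's rho was highest for Slc7a11, at 0.667 (exact permutation p = 0.083, adjusted p = 0.415), and adjusted p = 0.84 for the other 4. Without the 2 arrays farthest from the Slc3a2 median, r for Slc7a11 was 0.516. It was 0.731 within IL6raKO and -0.066 within Ctrl, each over 4 arrays, and the arrays of a group share a genotype.

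Several members are neighbours in the genome, as RefSeq orders genes in GRCm38.p6, and some neighbours lay far apart in signal while others lay close. Slc36a3, Slc36a2 and Slc36a1 lie side by side on chromosome 11, at percentiles 32.6, 57.1 and 87.3. Slc38a1, Slc38a2 and Slc38a4 lie together on chromosome 15, at percentiles 96.6, 93.3 and 32.1. Closer pairs were Slc6a16 and Slc6a21 on chromosome 7 (33.2 and 26.1), Slc6a18 and Slc6a19 on chromosome 13 (20.8 and 29.4), Slc6a20b and Slc6a20a (60.0 and 52.5) and Slc7a6 and Slc7a6os on chromosome 8 (69.7 and 82.4). Slc43a1 and Slc43a3, with 1 gene between them on chromosome 2, lay at 41.3 and 71.5. Differences of neighbours did not always share a sign: Slc43a1 was at -0.19 and Slc43a3 at 0.04.

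Promoter windows of 300 bases (250 before and 50 after each transcript start, RefSeq, GRCm38.p6) were at hand for 47 of the 64 members, in 68 windows. The letters TTCNNNGAA, a form bound by STAT factors, occurred in 4 of 68 windows (5.88%), those of Slc1a3, Slc38a9, Slc7a1 and Slc7a11, beside 8.3% of 32851 windows of all genes. The antioxidant response letters TGACNNNGC occurred in 11 of 68 (16.2%), beside 12.4% of all windows. Those 11 windows belong to 9 genes, and the windows of Slc7a6 overlap and share a match. The C/EBP-ATF letters TGATGNAAT occurred in 1 of 68 (1.47%), that of Slc6a21, beside 0.965%. A shorter form, TGATGNAA, was searched only after the Slc7a11 window had been read and its matches seen. It occurred in 5 of 68 (7.35%), beside 3.97%, and includes the longer form. Those 5 windows belong to 4 genes, and the windows of Slc7a7 overlap and share a match. Both strands were searched. The windows of Slc38a9 and Slc7a11, the members above the 75th percentile of signal that hold the STAT letters, are shown 5′ to 3′, with the matches to any of the searched letters in capitals. Slc38a9 is the window at chr13:112660516-112660815 on the plus strand, and Slc7a11 the window at chr3:50443564-50443863 on the minus strand.
Slc38a9: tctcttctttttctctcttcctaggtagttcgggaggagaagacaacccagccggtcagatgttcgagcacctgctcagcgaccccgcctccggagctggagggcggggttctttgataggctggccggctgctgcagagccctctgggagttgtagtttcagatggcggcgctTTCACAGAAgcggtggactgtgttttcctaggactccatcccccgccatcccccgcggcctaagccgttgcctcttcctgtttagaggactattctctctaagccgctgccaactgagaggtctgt
Slc7a11: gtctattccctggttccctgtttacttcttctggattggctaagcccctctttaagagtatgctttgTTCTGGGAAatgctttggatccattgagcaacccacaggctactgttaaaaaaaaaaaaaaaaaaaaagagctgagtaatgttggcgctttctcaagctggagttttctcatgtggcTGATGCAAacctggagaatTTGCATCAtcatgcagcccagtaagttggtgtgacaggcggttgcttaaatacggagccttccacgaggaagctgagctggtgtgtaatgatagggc
In Slc38a9 the capitals are the STAT letters. In Slc7a11 the first capitals are the STAT letters and the other 2 runs are the shorter C/EBP-ATF letters, once on each strand. Slc38a9 differed by -0.08 and Slc7a11 by 0.17, and neither passed the test. A match describes the letters of a window and not a bound site.

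Other genes of amino acid handling were set beside the carriers, and no gene of the 7 lists was called at an adjusted p under 0.05. Of all genes, 7.28% had an unadjusted p under 0.05 and 4.44% had groups without overlap. The list for the amino acid response factor ATF4 held 23 measured genes. Atf4 itself and the kinase gene Eif2ak4 are counted in it beside targets. In IL6raKO 14 of the 23 were lower and 9 higher, with a median of -0.01. At an unadjusted p under 0.05 there were 2, both higher: Asns, which makes asparagine, and Psat1, which acts in serine synthesis. Asns was at 7.48, 7.43, 7.40 and 7.45 in IL6raKO and at 7.21, 7.29, 7.34 and 7.36 in Ctrl, without overlap (difference 0.14, limma adjusted p = 0.67). Psat1 differed by 0.21 (limma adjusted p = 0.68), with overlap, and Vldlr and Sesn2 by -0.16 and -0.15. None of 17 aminoacyl-tRNA synthetases had an unadjusted p under 0.05 (10 lower, 7 higher, median -0.03), with Sars, Vars, Wars and Hars lowest in p. Of 13 genes of arginine and polyamine metabolism, 9 were lower and 4 higher, also with none at that threshold; Oaz2, an antizyme that restrains polyamine synthesis, differed by -0.28, Sat1 by 0.15, Azin1 by 0.12 and Agmat by -0.10. The arginine enzymes Arg1 and Nos2, which do not fall under the naming rule and were picked for their use of arginine, differed by 0.09 and -0.07.

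The 11 measured genes of glutamine, glutamate and glutathione metabolism held 7 lower and 4 higher. This list takes in breakdown as well as synthesis. At an unadjusted p under 0.05 it had 2 genes, Ggt5 and Chac2, of opposite sign. Ggt5 differed by -0.18, Chac2 by 0.30, Gpt2 by 0.17 and Gclc by 0.10. Among 13 genes of branched-chain and tryptophan catabolism, 4 had an unadjusted p under 0.05, all lower. They were Ido2, Kmo, Tdo2 and Ido1, which act at different steps in the breakdown of tryptophan. Over all genes 7.28% passed that threshold. Among genes below the median level 8.26% did, 652 lower and 171 higher. Kynu and Afmid, which act in the same breakdown and are named here after their values were seen, differed by -0.22 and 0.07 (limma adjusted p = 0.788 and 0.864). Ido2 was at 5.79, 5.75, 5.72 and 5.80 in IL6raKO and at 5.97, 6.08, 6.01 and 6.28 in Ctrl, without overlap (difference -0.32, SE 0.07, limma adjusted p = 0.448). Kmo differed by -0.36 (limma adjusted p = 0.573), Tdo2 by -0.21 and Ido1 by -0.24. All 4 had a mean signal below the median of all genes, where genes leaned lower as a whole. Their percentiles were 38 for Ido2, 15.3 for Kmo, 5.25 for Tdo2 and 19.9 for Ido1. Of 33 genes listed for amino acid sensing by mTORC1, 11 were lower and 22 higher (median 0.03). At an unadjusted p under 0.05 there were 4, all higher: Seh1l at 0.21, Sesn3 at 0.19, Rptor at 0.16 and Tsc2 at 0.14. The list was not sorted by whether a gene promotes or restrains the complex, so a shared sign gives no direction for its activity. Of these 33 genes, 18 lay above the 75th percentile of signal, where all genes leaned higher with a median of 0.02.

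Among 21 carriers of other families, 11 were lower and 10 higher. At an unadjusted p under 0.05 there were 3 (14.3%), all higher, beside 7.28% of all genes. Groups did not overlap in 2 of the 21, beside 4.44% of all genes. Slc25a13, the mitochondrial aspartate and glutamate carrier, differed by 0.26 without overlap (SE 0.07, limma adjusted p = 0.552), and Mfsd12, a lysosomal cysteine carrier, by 0.16 without overlap (limma adjusted p = 0.669). Slc15a2, a peptide carrier, was at 7.28, 7.35, 7.45 and 6.35 in IL6raKO and at 6.93, 6.66, 4.92 and 6.52 in Ctrl. Its difference of 0.85 (SE 0.38, 95% confidence interval 0.01 to 1.69, limma adjusted p = 0.681) was the largest positive one of all 19938 genes, with a wide spread in both groups. Ctrl replicate 3 was far below the others, and without it the difference was 0.40 (adjusted p = 0.754).

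**Figure D5:**
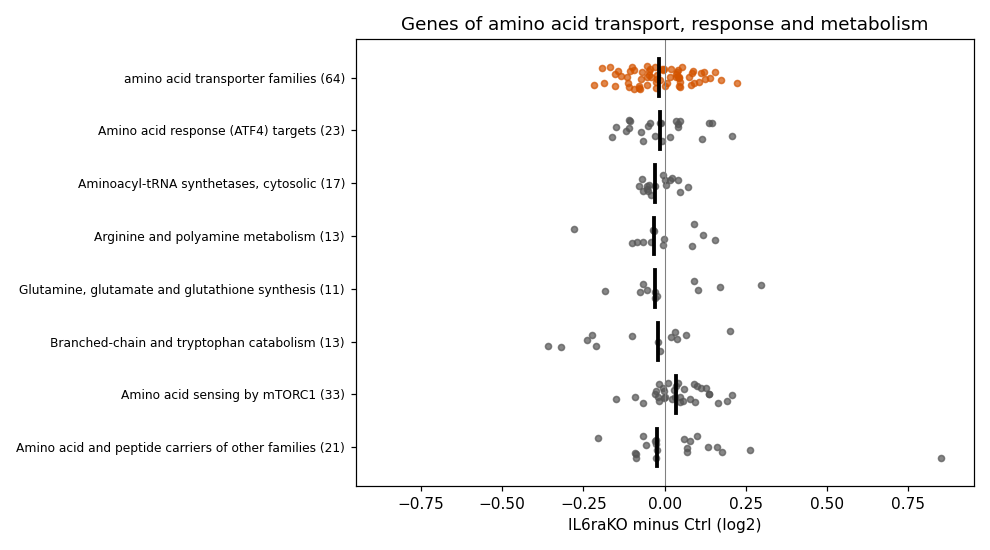
Difference IL6raKO minus Ctrl (log2, x axis) of each gene in the carrier families (64 members, orange) and in 7 lists of amino acid response, metabolism, sensing and other carriers (grey, number of measured genes in brackets); black bars are medians. Medians lie between -0.03 and 0.03, and Slc15a2 is the point at 0.85.

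Markers of other cells the cultures could hold were listed for 8 cell types. More genes were lower than higher in IL6raKO in each list, osteoclasts excepted. Most of these genes, again osteoclasts excepted, lay below the median level. In that range 6522 of 9969 genes of the whole array were lower too, with a median of -0.04. At an unadjusted p under 0.05 there were 7.28% of all genes, and 8.26% of genes below the median level. All 10 mast cell and basophil genes were lower (median -0.13, none at that threshold). Their mean level was 5.75 to 6.25 in IL6raKO and 5.93 to 6.49 in Ctrl. The largest differences of this list were in genes above the median level: Mcpt8 at -0.45 (percentile 67.6), Cpa3 at -0.38 (79.3) and Prss34 at -0.18 (68.8). All genes had a median of 0.00 between the median level and the 75th percentile, and of 0.02 above it. All 7 B cell genes were lower (median -0.17, 1 at that threshold), with a mean level of 5.45 to 5.53 in IL6raKO and 5.55 to 5.72 in Ctrl, and 9 of 12 genes of neutrophils and their precursors were lower (median -0.10, 2 at that threshold), at 5.90 to 6.18 in IL6raKO and 6.02 to 6.30 in Ctrl. Lower were also 7 of 9 T and NK cell genes (median -0.02). In that list 3 had an unadjusted p under 0.05, 2 lower and 1 higher. Of dendritic cell genes 5 of 8 were lower (median -0.06), and of stromal genes 6 of 8 (median -0.06), each with 1 at that threshold. Of erythroid and megakaryocytic genes 3 of 5 were lower (median -0.13), while Ppbp differed by 0.35 and Pf4 by 0.09. Of osteoclast genes 3 of 6 were lower (median 0.00). These last 2 lists had none at that threshold. The part of such cells in the values of the dim carriers was not tested.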

How the data were processed

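Log2 expression values were deposited by the authors for 8 arrays, 4 IL6raKO and 4 Ctrl; the submitters' processing notes name RMA (robust multi-array averaging) and R 2.13.1. The order of steps and any filter were not given in the sources used here, nor was a build of the genome. Of 35556 probe sets, 21789 had 1 gene symbol in the platform annotation, 1621 had several and 12146 none; those with 1 symbol gave 19938 genes, with the brightest probe set standing for the 999 genes with more than 1. All 64 members were in RefSeq. IL6raKO was compared with Ctrl by limma 3.58.1 in R 4.3.3 (lmFit and eBayes, two-sided, Benjamini-Hochberg over all genes). The procedure was tested on simulated data, with planted differences larger than that of any member. Recovery of differences as small as those of the members was not tested.

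Members and gene lists were chosen with earlier results of these data known. Named were Il6ra, Stat3 and Lyz2, members with an unadjusted p under 0.05, the members of lowest p up to 6 per direction, the 3 brightest members per role and up to 4 genes of lowest p per other list; Lyz2 differed by -0.11 (limma adjusted p = 0.763). The wider C/EBP-ATF letters were added after the data were seen. The number of arrays limits the precision. Alternatives were another variance model, a filter on dim genes, 2 normalizations, averaged probe sets, array weights, a replicate block and leaving out each array.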

Additional observations from a re-analysis of the deposited data

Results flagged for a closer look

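In 8 of the 128 sets of 4 arrays (64 members, 2 groups), 1 array stood apart from the other 3 by Dixon's test at 95%, where chance gives about 6.4. In IL6raKO, replicate 4 was high for Slc36a4 (10.454, others 10.331 to 10.347), replicate 2 for Slc6a12 (6.432, others 6.128 to 6.179) and Slc6a13 (5.547, others 5.369 to 5.394), and replicate 1 for Slc6a7 (6.158, others 6.033 to 6.043) and Slc7a12 (4.341, others 3.871 to 3.926). In Ctrl, replicate 2 was high for Slc6a6 (12.251, others 12.185 to 12.190), replicate 4 for Slc38a8 (6.146, others 5.871 to 5.891) and replicate 3 for Slc1a7 (6.145, others 5.778 to 5.840). All 8 lay above the rest of their group.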

How the results depend on the processing

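No member was called under any of the 15 alternatives (lowest adjusted p 0.466, with arrays centred on the 75th percentile), and none of the 28 genes named from other lists was. Genes called over the whole array, 6 in the fit as reported, numbered 22 with a trended and robust variance, 11 among genes above the median level, 3 after quantile normalization again, 0 with the replicate block and 0 to 1 with an array left out. Among genes above the median level, 823 had an unadjusted p under 0.05 (1452 over all genes) and 2 members did (4 as reported), both lower; fewer genes are tested there. With an array left out, 1 to 6 members had an unadjusted p under 0.05, and 1 to 5 were lower at that threshold. Il6ra passed with a trended and robust variance (-0.501, limma adjusted p = 0.00762), above the median level (-0.501, 0.0142) and with centred arrays (-0.530, 0.0438); Stat3 lost its call with the replicate block (limma adjusted p = 0.161) and with any array left out. With an array left out in turn, the differences of 25 of the 64 members crossed 0. Of the 35 members named by rule, 11 changed sign under some alternative: Slc7a1 to -0.014 (quantile) and -0.021 (centred), and Slc38a9 to 0.002 and Slc38a1 to 0.008 with averaged probe sets. Their ranges with an array left out were -0.058 to 0.012 for Slc38a1, -0.058 to 0.119 for Slc7a3, -0.037 to 0.068 for Slc7a1, -0.102 to 0.041 for Slc1a7, -0.062 to 0.013 for Slc1a5, -0.030 to 0.077 for Slc3a1, -0.035 to 0.110 for Slc43a3, -0.023 to 0.090 for Slc36a2, -0.080 to 0.002 for Slc36a4 and -0.079 to 0.027 for Slc6a2. Slc3a2's r turned to 0.265 with Slc7a5 and -0.526 with Slc7a7 within IL6raKO, to -0.053 with Slc7a8 and -0.066 with Slc7a11 within Ctrl, and to -0.577 with Slc7a6 and -0.287 with Slc7a8 without the 2 farthest arrays. The C/EBP-ATF letters were in 1 window as first searched and in 5 with the last letter dropped, a form chosen after seeing the data. Apart from the dropped letter, the cause of these changes was not tested.

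Over all genes, deviations of same-numbered arrays from their group means correlated at -0.006, -0.011, 0.041 and -0.01. The highest correlations with an array of another number were 0.014 to 0.055. Single genes and lists could still go together by number, and whether a number marks a shared preparation was not tested. The mean level of the mast cell and basophil genes was lower in IL6raKO in each same-numbered pair (5.75 and 5.93, 6.03 and 6.15, 6.04 and 6.16, 6.25 and 6.49 in IL6raKO and Ctrl). In both groups this level rose from replicate 1 to replicate 4. Slc7a2 also ranked alike by number in both groups, lowest in replicate 1 and highest in replicate 3. The fit as reported does not use the number. With the number as a replicate block, 3 members had an unadjusted p under 0.05: 2 lower (4 as reported) and 1 higher (none as reported), Slc7a2. Slc7a2 had a limma adjusted p = 0.658 with the replicate block, its difference between same-numbered arrays being 0.213 to 0.234 in all 4 pairs, and was not called.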
